A study of Mus musculus with 22 samples.

Results

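The mRNAs of 7 aquaporins and of the vasopressin V2 receptor were followed in mouse kidneys that had been exposed to cisplatin, to the adenosine receptor antagonist KW6002 (istradefylline), or to both. The genes were chosen by name, as the rows of the count table with the symbols Aqp1, Aqp2, Aqp3, Aqp4, Aqp6, Aqp7, Aqp11 and Avpr2, so that 8 of the 32858 genes listed were taken. All 8 were among the 17131 genes that passed the filter on low counts, and together they held 0.201% of all counts. Cisplatin raised Aqp2, lowered Aqp1 and Aqp11, and left the level of Aqp3, Aqp4, Aqp6, Aqp7 and Avpr2 without a change that passed the test. KW6002 given with cisplatin brought Aqp1 to the range of the vehicle group, left Aqp2 high and Aqp11 low, and set Aqp6 above and Aqp7 below their levels with vehicle or cisplatin.

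Poly(A) RNA of kidney tissue from 22 mice, 1 library per mouse, had been sequenced with a stranded kit and counted per gene, and whether the whole organ or a piece was extracted was not stated. All mice were male C57Bl6/J animals of 8 to 10 weeks, with no engineered allele named. The vehicle group held 5 mice, the KW6002 group 6, the cisplatin group 5 and the cisplatin plus KW6002 group 6. The vehicle was the carrier of KW6002. Cisplatin mice received 6 daily intraperitoneal doses of 3 mg/kg that began on day 0, and KW6002 mice received 3 mg/kg by the same route every day between days -5 and 7. Tissue was collected on day 8, or 72 h past the final dose of cisplatin. Total counts ran from 26471762 to 40510754 per library, so that the lowest member count in any library, 313 for Avpr2, was far from the limit of detection. Mouse numbers in the labels fell into a 300s series of 6 mice and a 500s series of 16, and all cisplatin-treated mice were of the 500s, as were 2 of the 5 vehicle and 3 of the 6 KW6002 mice.

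Aquaporins are membrane channels that let water, and in some members glycerol, follow an osmotic gradient. In the kidney, aquaporin-1 carries the bulk of reabsorbed water across the proximal tubule and the thin descending limb. In the collecting duct, vasopressin binds its V2 receptor on principal cells, which raises cyclic AMP, moves aquaporin-2 to the apical membrane and over a longer time raises Aqp2 transcription, while aquaporin-3 and aquaporin-4 let the water leave on the basolateral side.

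Genome positions were those of GENCODE M21 on GRCm38. Aqp2 (ENSMUSG00000023013) lay at chr15:99579055-99584547 on the plus strand and Aqp6 (ENSMUSG00000043144) next to it at chr15:99601400-99605477, on the same strand. Aqp3 (ENSMUSG00000028435) lay at chr4:41092722-41098183 and Aqp7 (ENSMUSG00000028427) at chr4:41033074-41048139, both on the minus strand. Aqp1 (ENSMUSG00000004655) lay at chr6:55336432-55348555 on the plus strand, Aqp11 (ENSMUSG00000042797) at chr7:97724006-97738289 on the minus strand and Avpr2 (ENSMUSG00000031390) at chrX:73892102-73895502 on the plus strand. Aqp4 was ENSMUSG00000024411. An exon of Arhgap4, on the other strand, overlaps Avpr2, and whether the counting used strand was not stated. In union mode, which the study used, a read on exons of both genes is given to neither unless strand separates them. The share of Avpr2 reads lost in this way is not known.

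The 250 bases before the start sites of the 2 members with the largest opposite changes after cisplatin are shown, because the transcription factors linked to Aqp2 were among the genes examined. Both come from RefSeq on GRCm38.p6 and read 5′ to 3′ along the gene, chr15:99578806-99579055 for Aqp2 and chr6:55336049-55336298 for Aqp1. Capitals mark 3 searched letter strings on either strand, the core of a cyclic AMP response element (TGACG, or CGTCA in reverse), a GATA core (AGATAA, or TTATCT in reverse) and the core shared by E26 family factors such as Elf3 and Elf5 (AGGAAG, or CTTCCT in reverse).
Aqp2: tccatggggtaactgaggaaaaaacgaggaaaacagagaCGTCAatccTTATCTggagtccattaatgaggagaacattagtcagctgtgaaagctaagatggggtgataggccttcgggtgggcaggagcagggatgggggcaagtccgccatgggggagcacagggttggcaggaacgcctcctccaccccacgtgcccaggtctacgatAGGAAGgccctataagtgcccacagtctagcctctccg
Aqp1: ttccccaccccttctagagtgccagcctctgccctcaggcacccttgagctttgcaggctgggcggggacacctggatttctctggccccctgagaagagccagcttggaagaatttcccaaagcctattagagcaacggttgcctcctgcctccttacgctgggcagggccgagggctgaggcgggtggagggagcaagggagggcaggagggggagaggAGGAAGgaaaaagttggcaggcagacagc
The Aqp2 window held the cyclic AMP response element core in reverse at -211 to -207, the GATA core in reverse at -202 to -197 and the E26 core at -38 to -33, counted back from the start site. The Aqp1 window held only the E26 core of these 3, at -29 to -24. Across 32851 RefSeq promoter windows of the same length, 17.8% held the first string, 9.99% the second and 29.5% the third. The osmotic response core TGGAAA, held by 18.6% of all windows, was in neither window. A promoter window was found for the other members except Aqp4, and none of these held TGACG or AGGAAG. One of the 2 windows of Aqp7 held the GATA core at -132 to -127 and TGGAAA at -234 to -229.

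Levels below are CPM, counts scaled to the library total after TMM correction. Fold changes, their standard errors (SE) and adjusted p-values are from edgeR's quasi-likelihood test over all 17131 genes, and a change passed at an adjusted p below 0.05. The comparisons share groups, so each is described on its own. In RNA of bulk kidney, fewer cells of a type and less RNA per cell cannot be told apart.

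Per 1000 exonic bases, Aqp1 was the most abundant member in the vehicle group at 515 ± 78.2 CPM (SD, n = 5), followed by Aqp2 at 113 ± 52.0, Aqp3 at 83.4 ± 11.3, Aqp6 at 24.1 ± 5.42, Aqp4 at 12.3 ± 5.80, Aqp7 at 8.35 ± 0.578, Aqp11 at 6.46 ± 0.619 and Avpr2 at 6.42 ± 1.95 CPM per 1000 bases. The neighbours Aqp2 and Aqp3, Aqp4 and Aqp7, and Aqp11 and Avpr2 overlapped between mice, and the other neighbours in this order did not. After cisplatin, Aqp2 at 301 ± 54.7 and Aqp1 at 287 ± 50.9 CPM per 1000 bases shared the top of the order and overlapped. With KW6002 added, Aqp1 at 552 ± 68.9 stood above Aqp2 at 318 ± 61.2 CPM per 1000 bases with no overlap.

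**Figure D1:**
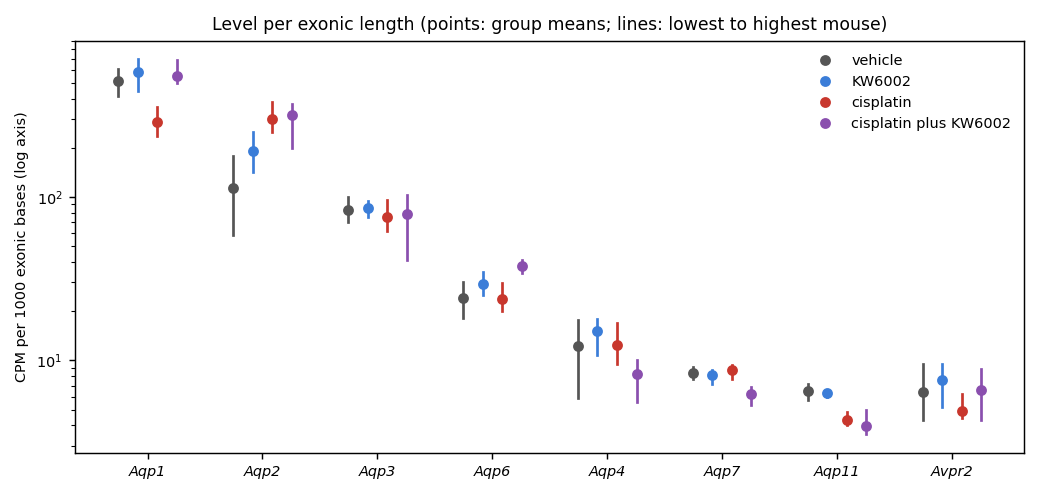
Level of each member in CPM per 1000 exonic bases on a log axis, with the mean of each group as a point and the lowest to highest mouse as a line, members ordered by their vehicle mean. Aqp1 led at 515 in the vehicle group, and Aqp2 reached the level of Aqp1 in the cisplatin group (301 and 287).

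The vehicle libraries were not alike in the collecting duct. Slc14a2, the urea transporter of the inner medullary collecting duct, was at 0.648 and 5.69 CPM in vehicle replicates 1 and 2 and at 33.2 to 58.8 CPM in vehicle replicates 3 to 5. The summed level of 7 inner medullary genes (Slc14a2, Slc14a1, Fxyd4, Akr1b3, Cryab, Slc5a3 and Slc6a12), a list written after the values were seen, was 177 and 234 CPM in these 2 libraries and 426 to 638 CPM in the other 3. It was 372 to 703 CPM with KW6002, 745 to 1011 CPM with cisplatin and 481 to 581 CPM with both drugs. Slc5a3 made the largest part of this sum in every mouse without cisplatin, and went with the mouse number series. It was at 115, 162 and 223 CPM in vehicle replicates 1 to 3, all of the lower series. In vehicle replicates 4 and 5, of the higher series, it was at 432 and 417 CPM. In the KW6002 mice it was at 194 to 229 CPM in the lower series and 338 to 457 CPM in the higher. The sum thus also varied with series, whose part in it was not tested. The 8 principal cell markers (Hsd11b2, Scnn1b, Scnn1g, Fxyd4, Gata3, Kcnj1, Tfcp2l1 and Krt8), which share Fxyd4 with that list, summed to 1052 and 1109 CPM in vehicle replicates 1 and 2 and to 1122 to 1145 CPM in the others. Results on collecting duct members are therefore also given without vehicle replicates 1 and 2, a choice made after the data were seen, and the part of this difference in those results was otherwise not tested. The 7 fat markers named below summed to 783 and 1432 CPM in these 2 libraries and to 158 to 348 CPM in the other vehicle mice. Leaving the 2 libraries out and adjusting for fat are thus not independent checks.

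**Figure D2:**
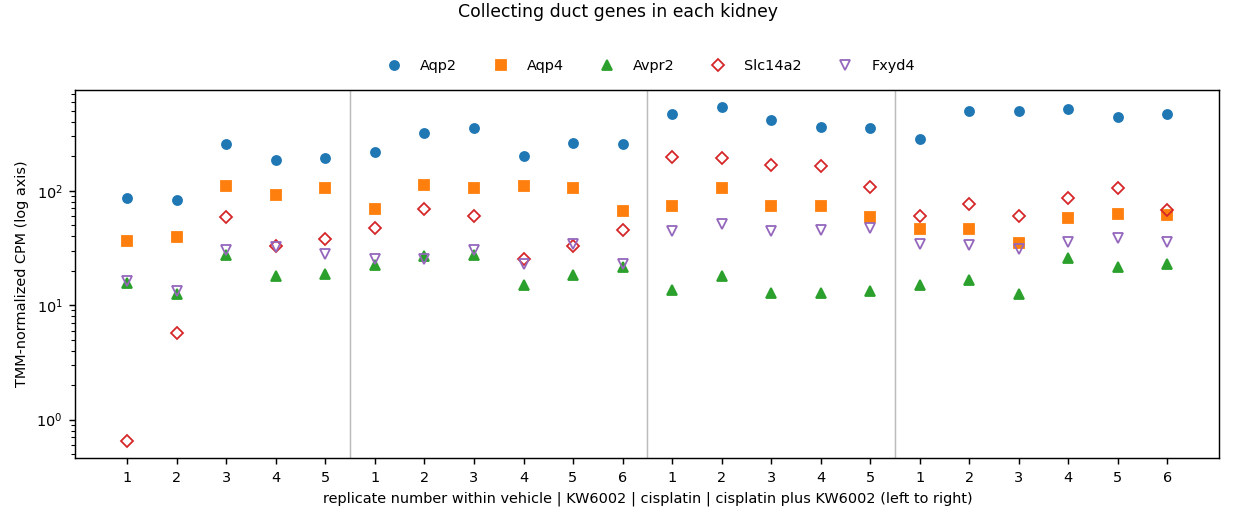
TMM-normalized CPM on a log axis for Aqp2, Aqp4 and Avpr2 (filled) and the collecting duct genes Slc14a2 and Fxyd4 (open) in each of the 22 mice, grouped by treatment. Vehicle replicates 1 and 2 sit lowest for Slc14a2, at 0.648 and 5.69 CPM, and for Aqp2, at 86.8 and 83.5 CPM.

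Cisplatin alone was first set against vehicle, which asks how the injured kidney expresses its water channels. Of the 8 members, 1 rose, 2 fell and 5 did not pass, while 34.6% of all genes tested rose and 35.9% fell, so the number called was not itself a result about these genes. The median log2 fold change of the members was -0.08, beside -0.01 over all genes. Cisplatin plus KW6002 was then set against cisplatin, which asks what the antagonist changed in treated mice. There, 2 members were higher, 1 was lower and 5 did not pass, beside 28.6% and 27.2% of all genes, and the medians were 0.07 and 0.01. Against vehicle, the group given both drugs had 2 members higher, 2 lower and 4 not passing, beside 29.8% and 29.9% of all genes, with medians of -0.03 and 0.00.

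**Figure D3:**
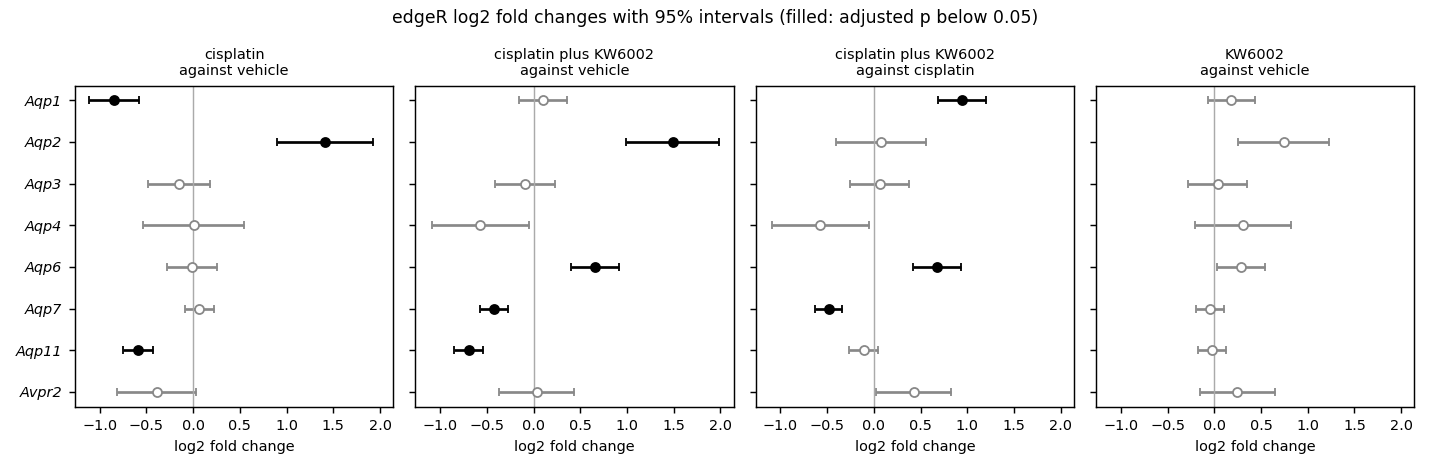
log2 fold change of each member with its 95% interval in 4 comparisons, filled where the adjusted p was below 0.05. Aqp2 is at 1.41 and 1.49 in the first 2 panels, while Aqp1 is at -0.84 with cisplatin and at 0.94 when KW6002 was added to cisplatin.

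Aqp2 encodes the vasopressin-regulated water channel of the apical membrane of principal cells. Its level was 86.8, 83.5, 254, 187 and 192 CPM in the 5 vehicle mice and 466, 540, 415, 359 and 357 CPM in the 5 cisplatin mice. Every cisplatin mouse was above every vehicle mouse, and the mean rose 2.66-fold from 161 ± 73.8 (SD, n = 5) to 427 ± 77.6 CPM (SD, n = 5), a log2 fold change of 1.41 (SE 0.25, adjusted p = 2.46e-05). In the 6 mice given both drugs, Aqp2 was between 283 and 522 CPM with a median of 482. These mice overlapped the cisplatin mice, and the log2 difference from cisplatin alone was 0.08 (95% interval -0.40 to 0.56, adjusted p = 0.796). They did not overlap the vehicle mice, from which they differed by 1.49 on the log2 scale (SE 0.24, adjusted p = 1.47e-05). Without vehicle replicates 1 and 2, the log2 fold changes against vehicle were 1.02 for cisplatin (adjusted p = 1.21e-04) and 1.10 for both drugs (adjusted p = 7.36e-05). Within the 500s mice alone they were 1.17 (adjusted p = 7.97e-05) and 1.25 (adjusted p = 7.06e-05).

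Set against a list of principal cell markers, Aqp2 showed the same direction. The log2 level of Aqp2 minus the mean log2 level of the 8 principal cell markers was 1.04 ± 0.624 (SD, n = 5) with vehicle, 2.57 ± 0.217 with cisplatin and 2.60 ± 0.288 with both drugs. The differences from vehicle, 1.53 and 1.55, had adjusted p-values of 0.0147 and 0.00742 in two-sided exact permutation tests adjusted over the 24 tests of this kind. The smallest p the design allows is 0.00794 for 5 against 5 mice and 0.00216 for 6 against 5, before adjustment, and both tests reached it. The marker list itself did not move one way, since 4 of its 8 genes rose with cisplatin and 3 fell, beside 34.6% and 35.9% of all genes. Its extremes, named after their values were seen, were Krt8, a keratin, with a log2 fold change of 1.51 and Kcnj1, the apical potassium channel, with -1.60.

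Aqp3 encodes the basolateral channel for water and glycerol of principal cells. It was between 128 and 182 CPM in the vehicle mice and at 134, 175, 122, 113 and 143 CPM in the cisplatin mice, which overlapped. The log2 difference was -0.15 (95% interval -0.49 to 0.18, adjusted p = 0.414). With both drugs Aqp3 spread most, from 75.0 to 188 CPM with a median of 147, and the mouse lowest in Aqp3, replicate 1, was also the lowest of its group in Aqp2. No comparison of Aqp3 passed, and its direction against vehicle turned with scaling by library size alone.

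Aqp4 encodes the basolateral water channel of principal cells, most abundant in the medulla. Its level was 36.5, 39.6, 111, 91.0 and 106 CPM with vehicle and 72.9, 106, 74.1, 73.1 and 59.1 CPM with cisplatin. The cisplatin mice fell between the low and the high vehicle mice, and the log2 difference was 0.00 (95% interval -0.53 to 0.54, adjusted p = 0.990). With both drugs Aqp4 was between 34.9 and 62.8 CPM with a median of 52.3, which overlapped each of the other groups except KW6002 alone, where it was between 66.9 and 112 CPM. The log2 difference of both drugs from cisplatin was -0.57 (SE 0.25, adjusted p = 0.0545) and that from vehicle was -0.57 (SE 0.25, adjusted p = 0.0538). Without vehicle replicates 1 and 2 the first was -0.57 with an adjusted p of 0.00597 and the second -0.99 with an adjusted p of 1.65e-04, and the difference between cisplatin and vehicle was -0.42 (adjusted p = 0.0680). Whether Aqp4 passed with both drugs thus changed with these 2 libraries. The difference from cisplatin holds no vehicle mouse and stayed at -0.57. These libraries bear on its adjusted p only through the fit shared by all groups. Relative to the principal cell markers, Aqp4 was lower with both drugs than with cisplatin by 0.61 on the log2 scale, at -0.52 ± 0.299 (SD, n = 6) against 0.09 ± 0.271 (n = 5), with an adjusted p of 0.0148 in the exact permutation test.

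Avpr2 encodes the V2 receptor, the receptor through which vasopressin acts on the collecting duct and thick ascending limb. It was at 15.6, 12.6, 27.6, 18.1 and 18.8 CPM in the vehicle mice and at 13.7, 17.9, 12.9, 12.8 and 13.3 CPM in the cisplatin mice. The groups overlapped, and the log2 difference was -0.39 (95% interval -0.81 to 0.03, adjusted p = 0.0887). The mice given both drugs were between 12.5 and 25.6 CPM with a median of 18.9, and their log2 difference from cisplatin was 0.42 (SE 0.19, adjusted p = 0.0680). Without vehicle replicates 1 and 2 these differences were -0.61 (adjusted p = 0.0160) and 0.43 (adjusted p = 0.0484), so that both passed. The second holds no vehicle mouse, and the 2 libraries bear on it only through the fit shared by all groups. Relative to principal cell markers, Avpr2 was lower with cisplatin than with vehicle by 0.36 on the log2 scale (adjusted p = 0.0254, exact permutation test), a call that was lost in 10 of its 19 alternatives. The mean level of Avpr2 was 18.5 ± 5.63 CPM (SD, n = 5) with vehicle, 14.1 ± 2.16 with cisplatin (n = 5) and 18.9 ± 5.08 with both drugs (n = 6).

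Aqp6 encodes an aquaporin of intracellular vesicles in acid-secreting intercalated cells. Its level was 45.2, 43.8, 73.2, 65.3 and 64.3 CPM with vehicle and 52.3, 62.1, 48.4, 53.9 and 71.8 CPM with cisplatin. These groups overlapped, with a log2 difference of -0.02 (95% interval -0.28 to 0.25, adjusted p = 0.912). With both drugs Aqp6 was between 83.3 and 100.1 CPM with a median of 92.4, above every vehicle and every cisplatin mouse. The log2 fold change was 0.67 against cisplatin (SE 0.12, adjusted p = 8.18e-05) and 0.65 against vehicle (SE 0.12, adjusted p = 9.96e-05). Without vehicle replicates 1 and 2 these were 0.68 (adjusted p = 4.36e-06) and 0.44 (adjusted p = 0.00229). The mean with KW6002 alone was 71.0 ± 9.74 CPM (SD, n = 6), and the highest of those mice, at 84.3 CPM, overlapped the lowest given both drugs.

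The intercalated cell markers (Slc4a1, Atp6v1g3, Atp6v0d2, Slc26a4, Foxi1, Insrr, Slc4a9 and Rhcg) moved differently from Aqp6 between vehicle and cisplatin. With cisplatin, 6 of the 8 fell and 2 did not pass, and their summed level went from 576 to 670 CPM in vehicle mice to 237 to 325 CPM. With KW6002 added, 6 of the 8 were higher than with cisplatin alone, as Aqp6 was, at a summed 391 to 508 CPM. Aqp6 relative to these markers was therefore higher with cisplatin by 1.37 on the log2 scale (adjusted p = 0.0147), and differed between both drugs and cisplatin by -0.14 (adjusted p = 0.249), in exact permutation tests.

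Aqp1 encodes the constitutive water channel of the proximal tubule and thin descending limb, and is also made in endothelium and red cells. It was at 1201, 1095, 1595, 1382 and 1493 CPM in the vehicle mice and at 618, 929, 681, 678 and 861 CPM in the cisplatin mice. All cisplatin mice were below all vehicle mice, and the mean fell from 1353 ± 205 (SD, n = 5) to 753 ± 134 CPM (SD, n = 5), a log2 fold change of -0.84 (SE 0.13, adjusted p = 3.93e-06). Mice given both drugs were between 1312 and 1812 CPM with a median of 1404. They were all above the cisplatin mice, by 0.94 on the log2 scale (SE 0.12, adjusted p = 1.18e-06), and overlapped the vehicle mice, with a log2 difference of 0.10 (95% interval -0.15 to 0.35, adjusted p = 0.496). Leaving out vehicle replicates 1 and 2, the cisplatin difference was -0.99 (adjusted p = 1.58e-06).

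The proximal tubule markers (Lrp2, Cubn, Slc34a1, Slc5a2, Slc5a12, Slc22a6, Slc22a8 and Kap) all fell with cisplatin, with a median log2 fold change of -3.17, and their summed level went from 34056 to 38317 CPM in vehicle mice to 1834 to 3475 CPM. With both drugs 7 of the 8 were higher than with cisplatin alone, and all 8 stayed below vehicle, at a summed 6146 to 11384 CPM. Aqp1 relative to them was higher than in vehicle mice by 2.42 on the log2 scale with cisplatin (adjusted p = 0.0147) and by 1.62 with both drugs (adjusted p = 0.00742) in exact permutation tests. The markers fell further than Aqp1, so these ratios follow the markers and show no rise of Aqp1 itself. Endothelial markers summed to 569 to 644 CPM with vehicle, 630 to 805 with cisplatin and 571 to 676 with both drugs. Red cell markers (Hbb-bs, Hbb-bt, Hba-a1, Hba-a2 and Alas2) all fell with cisplatin, from 65.9 to 408 CPM in sum to 0.0266 to 0.201 CPM, and were at 0.320 to 0.655 CPM in the mice given both drugs. The part of these cell types in the Aqp1 result was not tested.

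Aqp11 encodes an aquaporin of the endoplasmic reticulum of proximal tubule cells. Its level was 65.6, 59.3, 67.8, 53.8 and 57.5 CPM with vehicle and 39.4, 45.6, 39.1, 40.5 and 37.8 CPM with cisplatin. The groups did not overlap, and the log2 fold change was -0.59 (SE 0.08, adjusted p = 4.72e-07). The level with both drugs, between 33.4 and 46.6 CPM with a median of 36.3, overlapped that of cisplatin alone and differed from it by -0.11 on the log2 scale (95% interval -0.26 to 0.04, adjusted p = 0.220). It was below every vehicle mouse, by 0.70 on the log2 scale (adjusted p = 4.07e-08). Relative to the proximal tubule markers, Aqp11 was higher with cisplatin than with vehicle by 2.69 on the log2 scale (adjusted p = 0.0147), and lower with both drugs than with cisplatin by 1.87 (adjusted p = 0.00742), in exact permutation tests. The markers fell further than Aqp11 with cisplatin and were mostly higher again with both drugs, so these ratios follow the markers.

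Aqp7 encodes the aquaglyceroporin that carries glycerol in the straight (S3) proximal tubule and in fat. It was at 22.1, 23.7, 25.7, 24.6 and 21.8 CPM in the vehicle mice and at 21.7, 24.9, 24.9, 26.6 and 25.4 CPM in the cisplatin mice, which overlapped, with a log2 difference of 0.07 (95% interval -0.09 to 0.22, adjusted p = 0.445). Mice given both drugs were between 15.0 and 19.6 CPM with a median of 17.5, below every mouse of the 3 other groups. The log2 fold change was -0.49 against cisplatin (SE 0.07, adjusted p = 5.07e-06) and -0.42 against vehicle (SE 0.07, adjusted p = 2.93e-05). S3 markers (Slc7a13, Slc22a7, Slc5a1 and Acsm3) summed to 1259 to 2078 CPM with vehicle, 126 to 206 with cisplatin and 135 to 244 with both drugs. With cisplatin 3 of the 4 fell and Slc5a1, the apical glucose transporter of this segment, did not pass, and with KW6002 added 2 were higher than with cisplatin, 1 was lower and 1 did not pass. The vehicle sum was carried by Slc7a13 at a mean of 864 CPM and Acsm3 at 602 CPM. Slc5a1 was at 81.1 ± 10.3 CPM (SD, n = 5) with vehicle, 77.5 ± 9.28 with cisplatin (n = 5) and 59.7 ± 3.95 with both drugs (n = 6), where it was lower than with cisplatin by 0.38 on the log2 scale (adjusted p = 0.00163). Slc7a13 and Slc22a7 went the other way, from means of 6.37 and 3.18 CPM with cisplatin to 49.9 and 13.1 CPM with both drugs. Acsm3 had means of 72.5 and 51.8 CPM. Aqp7 relative to the mean of the 4 was higher than with vehicle by 3.84 on the log2 scale with cisplatin (adjusted p = 0.0147, exact permutation test). The 4 markers had a median log2 fold change of -4.03 and Aqp7 itself did not pass, so this ratio follows the markers. The ratio was lower with both drugs than with cisplatin by 1.47 (adjusted p = 0.00742, exact permutation test). In that comparison the marker median was 0.84 and Aqp7 itself had -0.49.

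Like Aqp7, 5 of the 7 fat markers (Adipoq, Plin1, Cidec, Fabp4, Lep, Retn and Cfd) were lower with both drugs than with cisplatin. Their sum was 158 to 1432 CPM with vehicle, 417 to 835 with cisplatin and 41.3 to 393 with both drugs. Aqp7 was at 21.8 to 25.7 CPM over the vehicle range. With the mean log2 level of the fat markers as a covariate, an alternative added after the data were seen, the log2 fold change of Aqp7 between both drugs and cisplatin was -0.46 (adjusted p = 2.85e-04), and those of Aqp1 and Aqp6 were 0.77 (adjusted p = 1.15e-04) and 0.43 (adjusted p = 0.00891). With this covariate Aqp4 passed at -1.04 (adjusted p = 0.00326), while Aqp2 turned to -0.52 (adjusted p = 0.0585) and Aqp3 to -0.20 (adjusted p = 0.381) without passing. Against vehicle, Aqp1 with both drugs turned to -0.059 (adjusted p = 0.744). The fat sums with cisplatin and with both drugs did not overlap, so the covariate is confounded with that comparison. The part of fat in these results was not tested further.

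**Figure D4:**
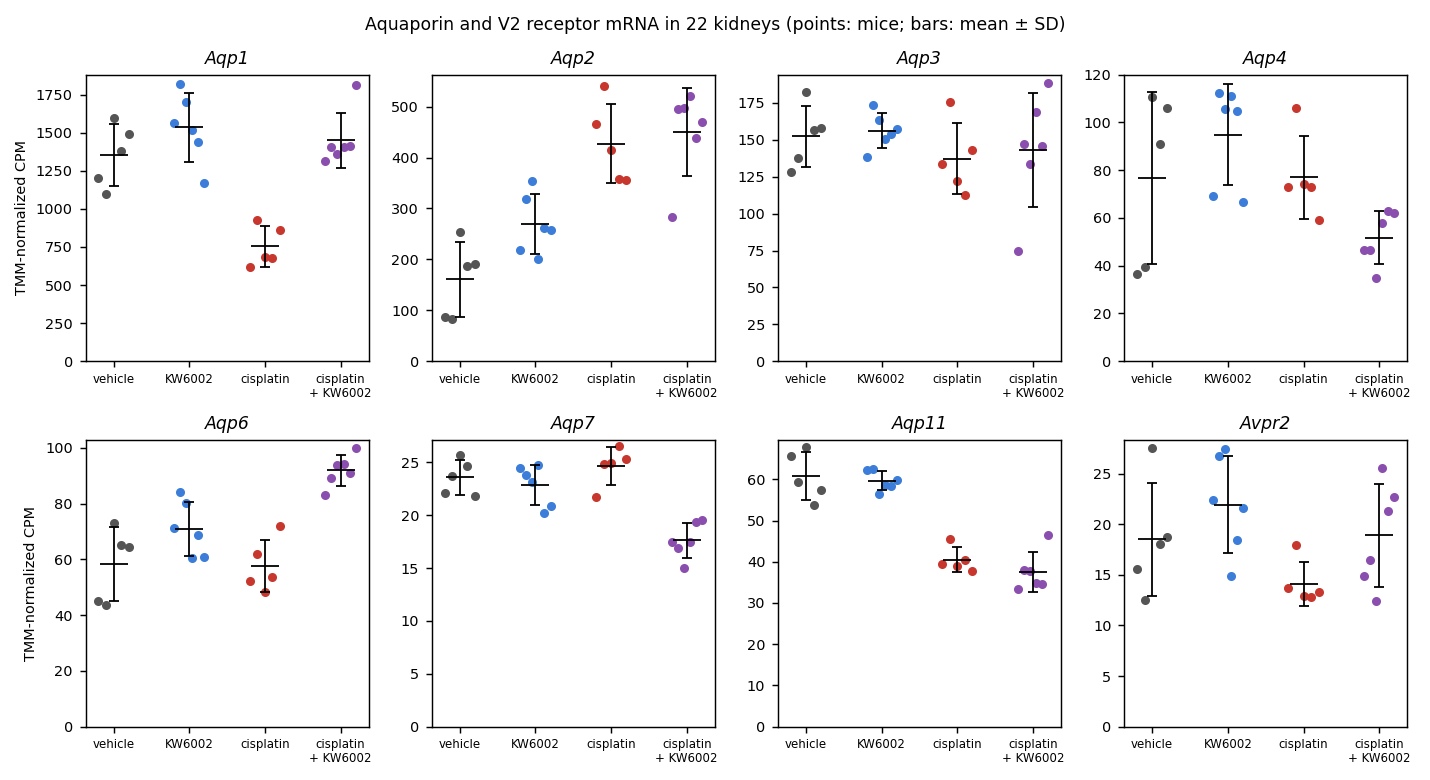
TMM-normalized CPM of each member in every mouse (points) with the mean ± SD of its group (bars), on axes that start at 0. Aqp1 is low with cisplatin alone, Aqp2 is high and Aqp11 low in both cisplatin groups, and Aqp6 and Aqp7 stand apart with both drugs, at 83.3 to 100.1 and 15.0 to 19.6 CPM.

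**Figure D5:**
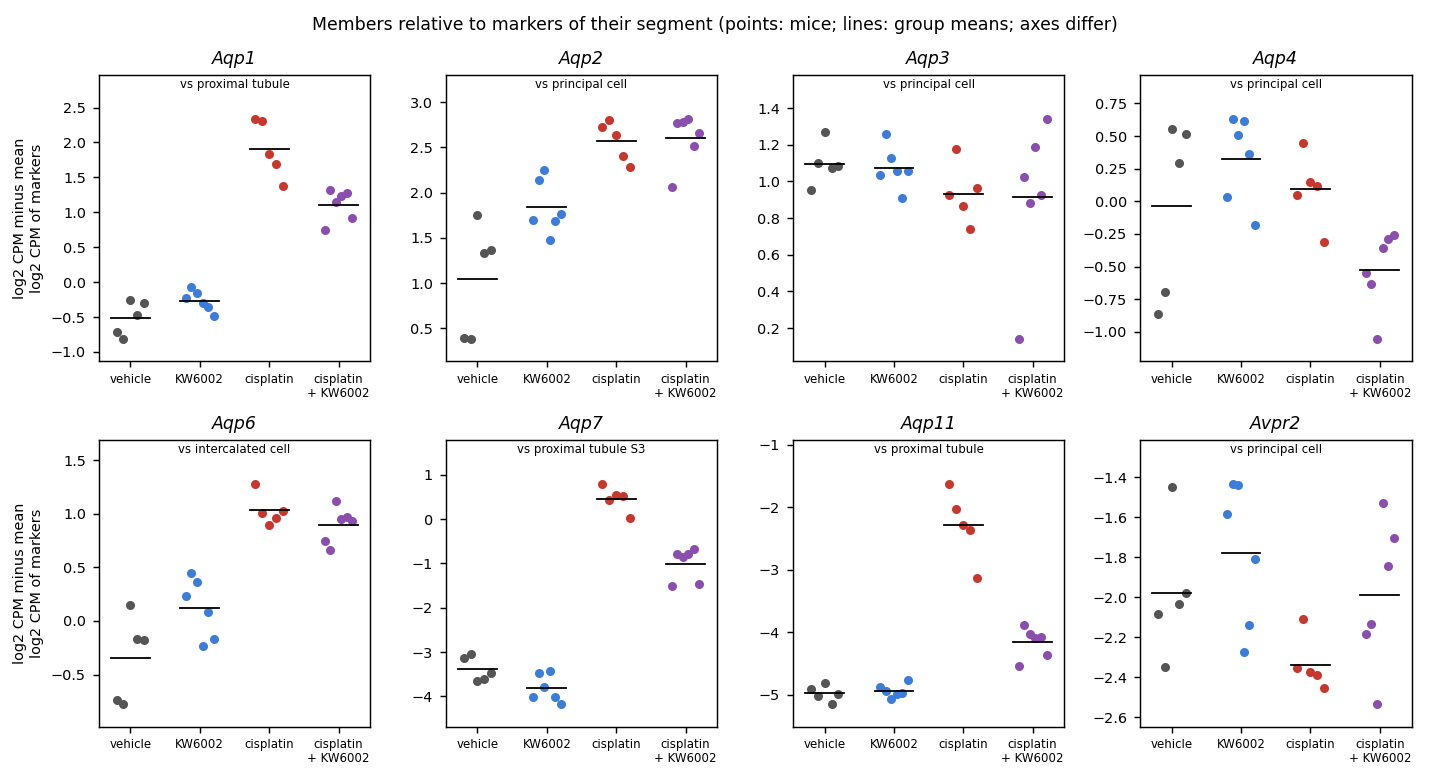
log2 CPM of each member minus the mean log2 CPM of the markers of its segment, by mouse (points) with group means (lines). With cisplatin, Aqp1, Aqp7 and Aqp11 stand above vehicle by 2.42, 3.84 and 2.69 relative to marker lists that fell. None of these mRNAs passed as higher itself. Aqp3 relative to principal cell markers stays within the spread between mice.

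KW6002 without cisplatin was set against vehicle, and no member passed, beside 0.0175% of all genes higher and 0.00% lower. The edgeR test called 3 genes in all, and 1930 of the 17131 had an unadjusted p below 0.05. Aqp2 came nearest among the members, between 201 and 355 CPM with a median of 260 in the KW6002 mice, a log2 difference of 0.74 (95% interval 0.26 to 1.23) whose edgeR p of 0.00445 became an adjusted p of 0.247. Leaving out vehicle replicates 1 and 2 brought it to 0.35 (adjusted p = 0.587). Avpr2 was between 14.9 and 27.5 CPM with a mean of 21.9 ± 4.81 (SD, n = 6), and Aqp1 between 1172 and 1822 CPM with a median of 1541, and both overlapped vehicle.

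Whether KW6002 acted differently in cisplatin-treated and untreated mice was tested as an interaction, the KW6002 difference among cisplatin mice minus that among the others. It passed for 3 members, Aqp1 higher and Aqp4 and Aqp7 lower, beside 22.8% of all genes higher and 19.9% lower, with a median of -0.03 over the members and 0.01 over all genes. The values were 0.76 for Aqp1 (SE 0.17, adjusted p = 0.00117) and -0.44 for Aqp7 (SE 0.10, adjusted p = 0.00124). For Aqp4 it was -0.88 (SE 0.35, adjusted p = 0.0486), which became -0.46 without vehicle replicates 1 and 2 (adjusted p = 0.157). Aqp6, at 0.39 (adjusted p = 0.0757), passed without those 2 libraries at 0.60 (adjusted p = 0.00224).

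The other aquaporins were scarce. Aqp8, a channel for water and ammonia, was at 0.654 ± 0.386 CPM (SD, n = 5) with vehicle, 3.26 ± 0.448 with cisplatin (n = 5) and 1.25 ± 0.411 with both drugs (n = 6). It rose by 2.31 on the log2 scale with cisplatin (adjusted p = 1.38e-06) and was lower with both drugs than with cisplatin by 1.38 (adjusted p = 2.79e-04). Aqp5 had means of 0.212 to 0.981 CPM across the groups, and its log2 difference between cisplatin and vehicle of 1.68 did not pass (adjusted p = 0.0645). Mip and Aqp9 were removed by the filter on low counts, with at most 10 counts in any library, and Aqp12 was not analysed here.

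Among the other receptors of this hormone family, Avpr1a, the V1a receptor, was at 10.1 ± 1.88 CPM (SD, n = 5) with vehicle, 5.81 ± 0.966 with cisplatin (n = 5) and 9.91 ± 0.769 with both drugs (n = 6). It fell with cisplatin by 0.79 on the log2 scale (adjusted p = 7.68e-06) and was higher with both drugs than with cisplatin by 0.77 (adjusted p = 1.28e-05). Oxtr, the oxytocin receptor, was at 0.596 ± 0.359 CPM with vehicle and 0.949 ± 0.152 CPM with cisplatin, a difference that did not pass (adjusted p = 0.0574). Avpr1b was at 0 or 1 count in every library.

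The genes that carry the vasopressin signal inside the cell, 15 for the G protein, adenylyl cyclases, protein kinase A and its anchors, split with cisplatin into 6 higher, 2 lower and 7 not passing, beside 34.6% of all genes higher and 35.9% lower. Akap12, an anchor of protein kinase A, rose most by 4.04 on the log2 scale (adjusted p = 2.04e-12), and Adcy9 had -0.32 (adjusted p = 3.81e-04). With KW6002 added, 1 of the 15 was higher than with cisplatin and 10 were lower, beside 28.6% and 27.2% of all genes. Adcy6, a principal cell cyclase that responds to vasopressin, was among the latter at -0.36 (adjusted p = 2.00e-05). Of 10 phosphodiesterases, which break down cyclic AMP, and arrestins, 4 rose and 2 fell with cisplatin. Pde1c rose by 1.72 (adjusted p = 1.34e-09) and Pde4c fell by 1.97 (adjusted p = 1.65e-13) on the log2 scale, and with KW6002 added these moved back by -0.87 and 0.93.

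Of 19 genes for aquaporin-2 trafficking and turnover, 6 rose and 9 fell with cisplatin, near the shares of all genes (34.6% and 35.9%). Mal, which holds aquaporin-2 at the apical membrane, had a log2 fold change of 0.68, and Hspa8, a chaperone that binds the channel, one of -1.04 (adjusted p = 1.23e-07 and 3.14e-08). With both drugs 8 were higher and 5 lower than with cisplatin, beside 28.6% and 27.2% of all genes. Stx3 was among the former at 0.55 (adjusted p = 2.85e-07). Of 10 transcription factors linked to Aqp2, 6 rose and 2 fell with cisplatin, with a median log2 fold change of 0.28. Elf3, which binds the E26 core, rose by 1.71 (adjusted p = 2.45e-13), and Nfat5, the osmotic response factor, by 0.63 (adjusted p = 1.36e-06). With KW6002 added, 5 of these factors were lower than with cisplatin and 1 was higher, beside 27.2% and 28.6% of all genes. Elf3 was lower by 0.84 (adjusted p = 3.21e-08). Aqp2 differed by 0.08 in that comparison, and any link between Elf3 and Aqp2 was not tested.

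All 9 genes for receptors and ligands that oppose vasopressin passed with cisplatin, 6 higher and 3 lower, in a comparison where 34.6% of all genes were higher and 35.9% lower. Edn1, endothelin-1, rose by 2.67 (adjusted p = 1.49e-13), P2ry2, a purine receptor, by 1.49 (adjusted p = 2.54e-08), Ednra by 0.98 (adjusted p = 2.04e-06), Ednrb by 0.57 (adjusted p = 0.00384), Adra2a by 1.17 (adjusted p = 1.46e-04) and Adra2b by 0.19 (adjusted p = 0.0482) on the log2 scale. Casr, the calcium-sensing receptor, fell by 3.08 (adjusted p = 1.64e-16), Ptger3, a prostaglandin receptor of the thick ascending limb and collecting duct, by 1.60 (adjusted p = 1.53e-06) and Ptger1 by 0.87 (adjusted p = 0.00354). With KW6002 added, 3 were higher and 4 lower than with cisplatin, beside 28.6% and 27.2% of all genes. Casr and Ptger3 were higher by 1.49 and 1.37. Markers of the thick ascending limb, which also makes Casr and whose list also holds Ptger3, all fell with cisplatin, from a summed 4718 to 7833 CPM with vehicle to 2071 to 2386 CPM, and their part in this result was not tested.

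The 2 urea transporters went apart. Slc14a2 rose by 2.60 on the log2 scale with cisplatin (adjusted p = 1.78e-04), with the vehicle mice spread as given above, while Slc14a1 had -0.74 (adjusted p = 0.0737). With KW6002 added, Slc14a1 was higher than with cisplatin by 1.04 (adjusted p = 0.0139), and Slc14a2 had -1.13 (adjusted p = 0.0512). Over the 69 genes of these 8 lists that were tested, 30 rose and 19 fell with cisplatin, with a median of 0.09, beside 34.6% and 35.9% of all genes and a median of -0.01. With both drugs 17 were higher and 28 lower than with cisplatin, with a median of -0.11, beside 28.6% and 27.2% of all genes and a median of 0.01.

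Genes whose pattern was most like each member were taken as those with the smallest root mean square difference in log2 CPM, each centred on its vehicle mean, over the 22 libraries. For Aqp11 these were Phyh, Uqcc1 and Creb3l2 at 0.10 to 0.12, and for Aqp7 Dynlt3, Ngrn and Fkbp3 at 0.12 to 0.13. For Aqp1 they were Med16, Cyfip2 and Slc17a1, at 0.17 to 0.18, of which Slc17a1 is a phosphate transporter of the proximal tubule. Aqp6 was nearest to Dglucy, Mfsd4b1 and Pax2 (0.19 to 0.20), Aqp3 to Eva1a, Hcfc1r1 and Fam234b (0.20 to 0.22) and Avpr2 to Aktip, Ntn4 and Cyfip2 (0.26 to 0.27). The members with the most spread had no close match, since Aqp4 was nearest to Adcy1, 4930426D05Rik and Hsd11b1 at 0.35 to 0.39 and Aqp2 to Slco4a1, Ifitm1 and Sema7a at 0.37 to 0.42.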

How the data were processed

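Poly(A) RNA of 22 kidneys was sequenced from stranded libraries with reads of 50 bases. Per the study's methods and the submitters' processing notes, reads were aligned with STAR 2.5.3a to mm10 and counted per gene with HTSeq-count 0.6.1p1, and the deposited values are these raw counts. The gene annotation was that of Ensembl releases 90 and 102, and whether counting used strand was not stated. From the counts, TMM factors, the filter on low counts by group (minimum count 10) and the quasi-likelihood test of edgeR 4.0.16 (R 4.3.3) were computed with 1 mean per group over all 22 libraries, and p-values were adjusted by Benjamini-Hochberg over 17131 genes. The script was tested on simulated data. DESeq2 1.42.0 was an alternative. log2 CPM used a prior count of 2. Each library carries its own mouse number. The 8 genes, pathway lists and marker lists were chosen with earlier results of these data known. All 8 genes were named in every group, and of each list every receptor and up to 3 genes per direction with the lowest adjusted p. Left out were 66 columns without a name or value. The 34 genes without a symbol held 0.00459% of counts. Replicate numbers did not pair the mice. The result of 1 gene of the transcription factor list is not reported here.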

Additional observations from a re-analysis of the deposited data

Results flagged for a closer look

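In 4 of the 32 groups of values tested (8 genes in 4 groups), 1 mouse stood apart from the rest by Dixon's criterion, which chance meets in about 1 of 20 groups. Aqp1 was at 1812 CPM in replicate 6 given both drugs, where the other 5 mice were between 1312 and 1411 CPM. Aqp11 was highest in the same mouse, at 46.6 CPM against 33.4 to 37.9 CPM in the others. Aqp2 was at 283 CPM in replicate 1 given both drugs, against 438 to 522 CPM. Avpr2 was at 17.9 CPM in cisplatin replicate 2, against 12.8 to 13.7 CPM. Without replicate 6 given both drugs, the log2 fold change of Aqp1 between both drugs and cisplatin was 0.87, and without replicate 1 that of Aqp2 was 0.18.

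The effect of KW6002 differed between mice with and without cisplatin for 3 members, by a test of the difference itself. The log2 differences were 0.76 for Aqp1, -0.88 for Aqp4 and -0.44 for Aqp7. Those of Aqp1 and Aqp7 passed in all 32 alternatives, at 0.67 to 1.01 and -0.52 to -0.40, and that of Aqp4 was lost in 18 of 32.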

How the results depend on the processing

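The calls for Aqp1, Aqp2 and Aqp11 between cisplatin and vehicle, for Aqp1, Aqp6 and Aqp7 between both drugs and cisplatin, and for Aqp2, Aqp6, Aqp7 and Aqp11 between both drugs and vehicle passed with the same direction in all 33 alternatives. When libraries were scaled by their totals only, the all-gene median against vehicle was 0.20 with cisplatin, in place of -0.01, and 0.16 with both drugs, in place of 0.00, and Aqp7 with cisplatin was then 0.28 and passed (adjusted p = 0.00150 in edgeR's test). With a log2 fold change beyond 1 and an adjusted p under 0.01 required, 1 member passed between cisplatin and vehicle, 0 between both drugs and cisplatin, 1 between both drugs and vehicle and 0 for the interaction, and of the pathway genes 15, 6, 8 and 6. The number of members passing between both drugs and cisplatin was 5 with library size scaling, with the 2 groups alone, in the 500s mice and without vehicle replicates 1 and 2, and 3 to 5 when 1 library was left out. It was 5 without vehicle replicate 3 and without replicate 6 given both drugs. The pathway genes passing between KW6002 and vehicle were 0 to 1, with 1 without vehicle replicate 3. The cause of these shifts was not tested. Replicate numbers did not pair the mice, with correlations of -0.18 to 0.40 between same-numbered mice and 36.4% of libraries nearest to their own number. With the replicate block 3, 3, 4, 0 and 3 members passed in the 5 comparisons, as without it, and 48, 45, 44, 0 and 41 pathway genes.

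Directions turned only where no call had been made. With library size scaling Aqp3 was 0.064 against vehicle with cisplatin and 0.063 with both drugs, -0.0018 between both drugs and cisplatin and -0.050 in the interaction, and Aqp6 was 0.20 with cisplatin. With the replicate block Aqp3 was -0.018 between both drugs and cisplatin, -0.0096 with KW6002 and -0.0080 in the interaction. With the mouse number series as a covariate, Aqp4 was -0.14 and Aqp6 0.013 with cisplatin. In the 500s mice, Aqp4 was -0.36 with cisplatin, and with KW6002 alone Aqp1 was -0.064, Aqp3 -0.029, Aqp4 -0.066, Aqp6 -0.032, Aqp11 0.084 and Avpr2 -0.0093. Without vehicle replicates 1 and 2, Aqp4 was -0.42 with cisplatin, Aqp1 -0.039 and Avpr2 -0.18 with both drugs against vehicle, and Aqp3 -0.083, Aqp4 -0.11 and Aqp11 0.00066 with KW6002. With the fat covariate, Aqp6 was 0.010 with cisplatin, Aqp2 -0.52 and Aqp3 -0.20 between both drugs and cisplatin, Aqp1 -0.059 and Avpr2 -0.20 between both drugs and vehicle, and Aqp3 -0.088 with KW6002 and -0.11 in the interaction. Leaving out 1 library gave -0.18 to 0.17 for Aqp4 and -0.11 to 0.076 for Aqp6 with cisplatin, and -0.039 to 0.19 for Aqp3 between both drugs and cisplatin. It gave -0.19 to 0.040 for Aqp3 and -0.078 to 0.22 for Avpr2 between both drugs and vehicle, and -0.021 to 0.11 for Aqp3 and -0.067 to 0.016 for Aqp11 with KW6002. The interactions of Aqp3 and Avpr2 ran from -0.076 to 0.16 and from -0.0076 to 0.29. Relative to principal cell markers, Aqp2 between both drugs and cisplatin was -0.22 with the median of the markers and -0.043 to 0.14 with 1 library left out, Aqp3 was -0.10 to 0.14, Aqp4 with cisplatin was -0.31 in the 500s mice and -0.076 to 0.28, and Avpr2 with both drugs was 0.018 in the 500s mice and -0.10 to 0.12.

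With 2 vehicle mice left, ratio tests against vehicle in the 500s could not reach an adjusted p of 0.05. The Aqp4 difference between both drugs and cisplatin passed in 13 of 33 alternatives, that from vehicle in 9, and the Avpr2 differences of cisplatin from vehicle in 3 and of both drugs from cisplatin in 7. The wide vehicle spread in collecting duct genes limits every contrast of Aqp2, Aqp4, Aqp6 and Avpr2 against that group.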
